A study of Mus musculus with 8 samples.

Results

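C-type lectins and scavenger receptors are pattern-recognition and uptake receptors of myeloid cells. Their mRNA was followed in macrophages from wild type (WT) mice and from mice lacking inducible nitric oxide synthase (iNOS-/-), the enzyme that makes nitric oxide in activated macrophages. Members were taken by gene symbol as Clec4a2, Clec4d, Clec4e, Clec4n, Clec5a, Clec7a, Msr1, Marco, Cd68 and Olr1, and every probe of these 10 genes was read, 15 of the 25697 probes and 10 of the 18138 gene symbols on the array. Bone marrow cells of 8-week-old female mice, labelled C57bl/6J for both genotypes, were cultured with the growth factor GM-CSF at 10 ng/ml for 7 days. The study calls the cells of this culture macrophages, though markers of other cell types were also detected, as given below. The cells were then left unstimulated or driven to M1, the inflammatory state, with LPS at 200 ng/ml plus IFN-γ at 10 ng/ml for 6 h. Crossing genotype with activation gave 4 groups, called unstimulated or M1 within WT and within iNOS-/-, and each was hybridised to 2 Illumina bead arrays. All groups shared GM-CSF culture. The study's methods give the iNOS-/- mice as the strain B6.129P2-Nos2tm1Lau/J, in which the deficiency is not limited to myeloid cells, and the WT mice as C57BL/6J, so the deficiency and other differences between these strains cannot be told apart. The labels do not say that both arrays of a group came from separate mice or cultures, so the p-values measure the spread between these arrays, which may be technical.

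The receptors form functional groups. Clec4e (Mincle), Clec4d (MCL) and Clec4n (Dectin-2) bind fungal and mycobacterial glycans or glycolipids and signal through the Fc receptor γ chain, whereas Clec7a (Dectin-1) binds β-glucan through its extracellular lectin domain and signals through a motif in its own intracellular tail. Clec5a signals through the adaptor DAP12, and Clec4a2 carries an inhibitory motif. Syk, Card9, Bcl10 and Malt1 relay the activating signals to NF-κB. Msr1 and Marco are class A scavenger receptors that take up modified lipoproteins and bacteria, Olr1 (LOX-1) is a lectin-like receptor for oxidised lipoprotein, and Cd68 is a lysosome-associated glycoprotein of macrophages.

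Several members lie side by side on the chromosome, so their start regions are shown before their values. In the RefSeq table of the GRCm38.p6 assembly, Clec4n, Clec4d and Clec4e follow each other directly on chromosome 6, and Clec7a is next to Olr1 on the same chromosome. RefSeq promoter entries were matched for 8 of the 10 genes, and Clec4n and Msr1 had no match. The 250 bases upstream of the start are printed below for Clec4d and Clec4e, neighbours whose responses differed in direction in WT cells, for Marco, which had the greatest difference between the genotypes' responses among the members, and for Cd68, which was lower in iNOS-/- cells. They are from chr6:123261857-123262106 on the plus strand, chr6:123289872-123290121 on the minus strand, chr1:120505025-120505274 on the minus strand and chr11:69666171-69666420 on the minus strand, all upstream of the gene and before its first exon. Capitals mark matches, on either strand, to the motif letters given in the next paragraph.
Clec4d: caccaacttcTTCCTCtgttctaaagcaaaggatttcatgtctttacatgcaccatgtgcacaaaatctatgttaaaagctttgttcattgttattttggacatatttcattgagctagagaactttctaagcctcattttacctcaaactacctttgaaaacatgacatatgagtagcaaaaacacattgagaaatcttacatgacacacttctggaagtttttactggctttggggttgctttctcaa
Clec4e: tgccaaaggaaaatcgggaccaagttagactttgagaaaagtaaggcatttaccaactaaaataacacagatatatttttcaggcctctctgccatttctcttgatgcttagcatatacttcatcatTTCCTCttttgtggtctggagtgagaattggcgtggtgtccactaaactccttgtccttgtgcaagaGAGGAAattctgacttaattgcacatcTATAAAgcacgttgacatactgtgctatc
Marco: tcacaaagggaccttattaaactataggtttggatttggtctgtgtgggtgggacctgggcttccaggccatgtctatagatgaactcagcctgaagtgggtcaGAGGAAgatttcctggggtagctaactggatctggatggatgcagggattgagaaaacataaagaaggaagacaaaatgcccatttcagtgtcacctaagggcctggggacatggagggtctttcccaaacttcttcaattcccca
Cd68: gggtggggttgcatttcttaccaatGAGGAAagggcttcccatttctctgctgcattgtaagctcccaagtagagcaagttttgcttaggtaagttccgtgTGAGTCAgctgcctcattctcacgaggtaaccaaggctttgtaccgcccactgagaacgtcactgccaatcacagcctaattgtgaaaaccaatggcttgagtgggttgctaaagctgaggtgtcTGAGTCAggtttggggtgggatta

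The motifs searched were GAGGAA (a core bound by the myeloid factor PU.1), TGANTCA (AP-1), TTCNNNGAA (GAS), TTGCNNCAA (C/EBP), TATAAA, and the ISRE and NF-kB motifs, and no 2 of these matches overlapped in the windows shown. GAGGAA was found in the windows of 7 of the 8 genes (Clec4d, Clec4e, Clec5a, Clec7a, Marco, Cd68 and Olr1), and 23.3% of all 32817 promoter windows of this length hold it. TGANTCA occurred in the windows of Cd68 and Olr1, against 6.75% of all windows. TATAAA occurred in those of Clec4a2, Clec4e and Clec5a, against 12.4%. TTCNNNGAA occurred in that of Clec4a2, against 7.01%. The letters for ISRE, C/EBP and NF-kB were in none of the 8 genes' windows, against 2.97%, 1.74% and 7.25% of all windows. These matches describe the sequence and were not tested for binding.

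Across the arrays, mean intensity ranged from 155 to 224 and 11833 to 12673 probes were detected, meaning a detection p-value under 0.05 against negative control probes. Values below are scaled intensities, and log2 of them. Scaling multiplied the deposited bead intensity of each array by a factor of 0.801 to 1.30, fitted to the mean array through probes of stable rank. It did not make mean intensities equal. The iNOS-/- M1 arrays had means of 224 and 208 and factors of 1.12 and 1.21, so they stayed brighter as a whole. The iNOS-/- unstimulated arrays had means of 212 and 223 and factors of 0.845 and 0.801. Levels of different probes are not comparable with each other. The Nos2 probe was undetected in both unstimulated groups and read 7.25 ± 0.29 (log2, SD, n = 2) in WT M1 and 7.60 ± 0.12 in iNOS-/- M1, a difference of 0.36 (SE 0.32, adjusted p = 0.397 in limma). Whether this probe lies within the deleted part is not given in the sources used here, so it does not check the labels, and the iNOS-/- groups are named as labelled. Of 9 macrophage markers, 8 were detected on all arrays. The RNA is from bulk cultures, so fewer cells of a type and less RNA per cell cannot be told apart.

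Of the 15 member probes, 9 probes for 7 genes were detected on all 8 arrays and were tested among 13868 probes. Clec4a2 (2 probes), Msr1 (1 probe), Olr1 (2 probes) and a second Clec7a probe were detected on no array, so nothing can be said about their changes. Between the M1 groups, 7 of 9 member probes passed an adjusted p under 0.05, 6 higher and 1 lower in iNOS-/-, where 48.5% of all tested probes were called, 24.2% higher and 24.3% lower. Between the unstimulated groups, 5 of 9 were called, all lower in iNOS-/-, against 32.1% of all probes called, 15.9% higher and 16.2% lower. Activation changed 6 of 9 in WT cells (3 higher, 3 lower), against 35.1% of all probes called, 20.2% higher and 14.9% lower. It changed 7 of 9 in iNOS-/- cells (6 higher, 1 lower), against 50% called, 26.2% higher and 23.8% lower. The response differed between genotypes for 7 of 9 probes, all 7 higher in iNOS-/-, where 41.9% of all probes were called, 20.8% higher and 21.1% lower. The median log2 difference over the 9 probes was 0.93 between the M1 groups, against 0 over all probes, and −0.44 between the unstimulated groups, against −0.02. Clec5a enters with several probes, and both medians are values of its probes. By gene, with any probe called, 5 of the 7 tested were called between the M1 groups (4 higher, 1 lower). Between the unstimulated groups 5 genes were called, all lower. Activation changed 6 genes in WT (3 higher, 3 lower) and 5 in iNOS-/- (4 higher, 1 lower). The response was higher in iNOS-/- for 5 genes. All 9 probes passed the detection filter in every group, so none was admitted through the group in which it was high.

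**Figure D1:**
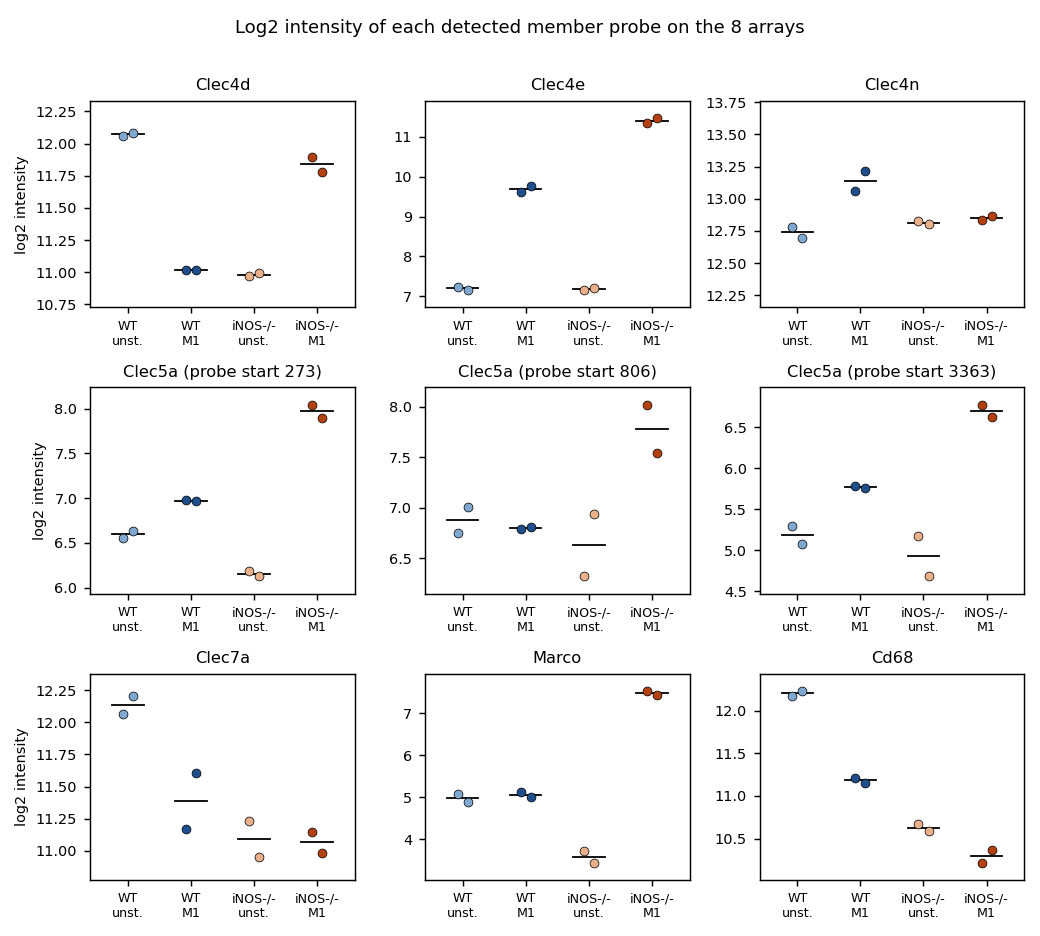
Log2 scaled intensity (vertical axis, own range in each panel) of the 9 detected member probes in the 4 groups. Each point is 1 array and each line the mean of 2. Clec4e and Marco were highest in iNOS-/- M1, Clec4d was high in WT unstimulated and iNOS-/- M1, and Cd68 was highest in WT unstimulated.

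Clec4e, the receptor for mycobacterial cord factor, rose on activation in both genotypes and rose further in iNOS-/- cells. Its scaled intensities were 150 and 143 on the WT unstimulated arrays, 787 and 872 in WT M1, 142 and 148 in iNOS-/- unstimulated, and 2611 and 2823 in iNOS-/- M1. The M1 groups lay above both unstimulated groups, which overlapped each other, and both iNOS-/- M1 arrays lay above both WT M1 arrays. Clec4e was 5.66-fold higher after activation in WT (log2 2.50, SE 0.10, adjusted p = 8.56e-05 in limma) and 18.7-fold higher in iNOS-/- (log2 4.22, adjusted p = 1.63e-05). The difference between these responses was 1.72 on the log2 scale (SE 0.14, adjusted p = 0.000853). After activation Clec4e was 3.28-fold higher in iNOS-/- than in WT (log2 1.71, SE 0.10, adjusted p = 0.000261), and before it the difference was −0.01 with a 95% interval of −0.26 to 0.23.

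Clec4d, which pairs with Clec4e at the cell surface, fell on activation in WT cells and rose in iNOS-/- cells. The intensities were 4275 and 4346 in WT unstimulated, 2077 and 2077 in WT M1, 2006 and 2035 in iNOS-/- unstimulated, and 3808 and 3515 in iNOS-/- M1. The WT unstimulated and iNOS-/- M1 arrays were high, the other 4 low, and no high array overlapped a low one. In WT the log2 response was −1.05 (SE 0.08, adjusted p = 0.000771 in limma), and in iNOS-/- it was 0.86 (SE 0.08, adjusted p = 0.000720). The responses differed by 1.91 (SE 0.12, adjusted p = 0.000442). Clec4d was 2.13-fold lower in iNOS-/- than in WT before activation and 1.76-fold higher after it (log2 −1.09, adjusted p = 0.000755, and 0.82, adjusted p = 0.00106). The rise in iNOS-/- cells depended on normalization. With quantile normalization it was 0.19 (adjusted p = 0.108) and with neqc, which subtracts a background and then applies quantiles, 0.19 (adjusted p = 0.106). The difference between the M1 groups was 0.31 under both and was still called.

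Clec4n, the third gene of the row, differed little across the groups. It read 7050 and 6645 in WT unstimulated, 8527 and 9516 in WT M1, 7265 and 7145 in iNOS-/- unstimulated, and 7304 and 7477 in iNOS-/- M1. Both WT M1 arrays lay above the other 6. The WT response was 0.40 on the log2 scale (SE 0.09, adjusted p = 0.0253 in limma), and it was not called without WT unstimulated replicate 1 (adjusted p = 0.0772), WT unstimulated replicate 2 (0.135) or WT M1 replicate 2 (0.0952), or with quantile normalization (0.26, adjusted p = 0.0658). The iNOS-/- response was 0.04 (95% interval −0.20 to 0.27, adjusted p = 0.768). Between the M1 groups the difference was −0.29 (95% interval −0.52 to −0.05), with an adjusted p of 0.0519, and 6 of the 16 settings run called it. With quantile normalization and neqc, Clec4n was lower in iNOS-/- M1 than in WT M1 (−0.79 and −0.78) and fell on activation in iNOS-/- cells (−0.66 under both). The difference in response was −0.36 (adjusted p = 0.0791) here and −0.91 under both of those normalizations, where it was called. The sign of the iNOS-/- response of Clec4n thus changed with normalization. Clec4a2, a member of the same gene cluster with an inhibitory motif, was undetected.

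Clec7a, the β-glucan receptor, was highest in WT unstimulated cells. It read 4289 and 4714 there, 2304 and 3118 in WT M1, 2413 and 1980 in iNOS-/- unstimulated, and 2272 and 2029 in iNOS-/- M1. Both WT unstimulated arrays lay above the other 6, among which the groups overlapped, except that both WT M1 arrays lay above both iNOS-/- M1 arrays. Before activation Clec7a was 2.06-fold lower in iNOS-/- than in WT (log2 −1.04, SE 0.19, adjusted p = 0.0120 in limma). That call was lost without WT unstimulated replicate 2 (adjusted p = 0.0562) or iNOS-/- unstimulated replicate 2 (0.0667). The WT response was −0.75 (SE 0.19, adjusted p = 0.0316), and it was lost without WT unstimulated replicate 1 (0.0793), WT unstimulated replicate 2 (0.117) or WT M1 replicate 1 (0.109). The iNOS-/- response was −0.03 (95% interval −0.50 to 0.45, adjusted p = 0.921), and the responses differed by 0.72 (95% interval 0.05 to 1.39, adjusted p = 0.0815), a difference called without WT M1 replicate 2 (0.92, adjusted p = 0.0433). Between the M1 groups the difference was −0.32 (95% interval −0.79 to 0.15, adjusted p = 0.215). Quantile normalization and neqc gave −0.76 there (adjusted p = 0.0161 and 0.00104) and −0.64 for the iNOS-/- response (adjusted p = 0.0260 and 0.00279), so both were called lower.

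The Clec7a reading rests on 1 of 2 probes, whose first 30 bases are printed to show that they target different stretches. The probe that starts at base 2183 of its transcript was detected on every array, and the one that starts at base 209, designed on a predicted transcript model, on none (lowest detection p-value 0.155).
Clec7a probe starting at base 2183: gtgctgagtccactgaattgttctcttgaa
Clec7a probe starting at base 209: ggtgacacaattcagggagaaatccagagg

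Clec5a, which associates with DAP12 and binds viral glycans, has 3 probes, and all read highest in iNOS-/- M1. Their first 30 bases, shown because the probes differ in spread and in their WT response, share no run of 20 bases with each other or with any other probe.
Clec5a probe starting at base 273: ggcaaaagtaatgatggcttcgtccccacg
Clec5a probe starting at base 806: gtgactgaaaccagcccaggaaatatagag
Clec5a probe starting at base 3363: gccatacccttgccaatatgcactgttacc

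The probe starting at base 273 read 93.9 and 99.3 in WT unstimulated, 126 and 125 in WT M1, 72.9 and 69.8 in iNOS-/- unstimulated, and 264 and 238 in iNOS-/- M1, with no overlap between groups. The probe starting at base 806 read 108 and 129, 110 and 112, 80.0 and 123, and 260 and 186 in the same order. The probe starting at base 3363 read 39.4 and 33.6, 55.1 and 54.3, 36.0 and 25.6, and 110 and 98.9. On each probe both iNOS-/- M1 arrays lay above the other 6. Between the M1 groups Clec5a was higher in iNOS-/- by 0.998 (SE 0.09, adjusted p = 0.000832 in limma), 0.98 (SE 0.26, adjusted p = 0.0288) and 0.93 (SE 0.19, adjusted p = 0.0112) on the log2 scale, again in that order of probes. The call of the second probe was lost without WT M1 replicate 1 (adjusted p = 0.101), WT M1 replicate 2 (0.0992) or iNOS-/- M1 replicate 1 (0.113), and that of the third without the same arrays (0.0507, 0.0538 and 0.0523).

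On activation in iNOS-/- cells the 3 Clec5a probes rose by 1.82, 1.15 and 1.78 on the log2 scale (adjusted p = 0.000101, 0.0159 and 0.000997 in limma). The second was not called without iNOS-/- unstimulated replicate 1 (adjusted p = 0.0608) or iNOS-/- M1 replicate 1 (0.0711). In WT cells only the first probe was called (0.38, adjusted p = 0.0282), against −0.08 (adjusted p = 0.838) and 0.59 (adjusted p = 0.0626) on the others. That WT call was lost in 6 of the 8 fits that left out an array, namely without either WT unstimulated array (0.141 and 0.0953), either WT M1 array (0.0898 and 0.0918) or either iNOS-/- unstimulated array (0.0517 and 0.0504), and the third probe was called without iNOS-/- unstimulated replicate 1 (0.0308) or replicate 2 (0.0303). The responses differed by 1.44, 1.23 and 1.19 (adjusted p = 0.00119, 0.0470 and 0.0182). The second of these was lost in 6 of the 8 left-out fits, namely without either WT unstimulated array (0.0757 and 0.116), either WT M1 array (0.114 and 0.113), iNOS-/- unstimulated replicate 1 (0.101) or iNOS-/- M1 replicate 1 (0.112). The third was lost in 4, without WT unstimulated replicate 1 (0.0523), either WT M1 array (0.0554 and 0.0585) or iNOS-/- M1 replicate 1 (0.0551). Before activation the first probe was lower in iNOS-/- (−0.44, adjusted p = 0.0195), which no fit without an array of either unstimulated group called (adjusted p = 0.0520, 0.0737, 0.0750 and 0.103), and the others differed by −0.25 and −0.26 (adjusted p = 0.525 and 0.348).

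**Figure D2:**
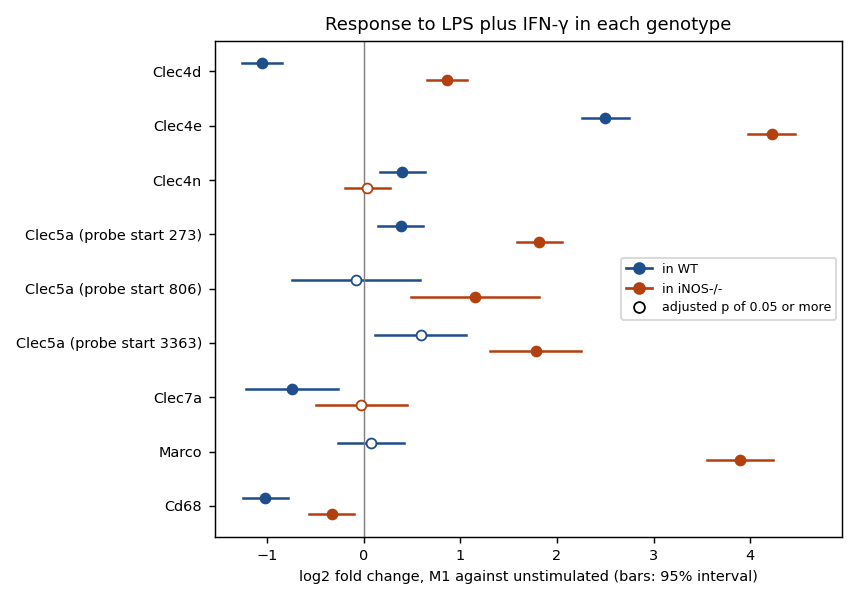
Log2 fold change of M1 against unstimulated cells (horizontal axis) for each detected member probe in WT and in iNOS-/-, with 95% intervals from limma. Filled points had an adjusted p under 0.05. The intervals of Clec4d lie on opposite sides of 0, and Marco rose in iNOS-/- (3.89) with a WT value of 0.07.

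Marco, a class A scavenger receptor that binds bacteria, rose on activation in iNOS-/- cells, with no change called in WT cells. The intensities were 33.7 and 29.5 in WT unstimulated, 34.6 and 31.9 in WT M1, 13.3 and 10.9 in iNOS-/- unstimulated, and 185 and 173 in iNOS-/- M1. The WT groups overlapped, both iNOS-/- unstimulated arrays lay below them and both iNOS-/- M1 arrays above. Marco was 14.9-fold higher after activation in iNOS-/- (log2 3.89, SE 0.14, adjusted p = 4.11e-05 in limma), whereas the WT response was 0.07 (95% interval −0.27 to 0.42, adjusted p = 0.710). The responses differed by 3.82 (SE 0.19, adjusted p = 0.000300), or 2.84 with neqc. Marco was 2.62-fold lower in iNOS-/- than in WT before activation (log2 −1.39, adjusted p = 0.00171; −0.80 with neqc) and 5.39-fold higher after it (log2 2.43, SE 0.14, adjusted p = 0.000258). Msr1, the other class A receptor among the members, and Olr1 were undetected.

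Cd68, the lysosomal glycoprotein, was lower in iNOS-/- cells in both states. It read 4619 and 4810 in WT unstimulated, 2363 and 2281 in WT M1, 1626 and 1536 in iNOS-/- unstimulated, and 1192 and 1319 in iNOS-/- M1, and no groups overlapped. In iNOS-/- it was 2.98-fold lower than in WT before activation (log2 −1.58, SE 0.09, adjusted p = 0.000366 in limma) and 1.85-fold lower after it (log2 −0.89, SE 0.09, adjusted p = 0.00120). Activation lowered it 2.03-fold in WT (log2 −1.02, adjusted p = 0.00130). In iNOS-/- cells the response was −0.33 (SE 0.09, adjusted p = 0.0309). This call was lost in 6 of the 8 left-out fits: without either WT unstimulated array (0.0628 and 0.0630), WT M1 replicate 1 (0.0519), either iNOS-/- unstimulated array (0.129 and 0.0671) or iNOS-/- M1 replicate 1 (0.105). Quantile normalization and neqc put that response at −0.84. The responses differed by 0.69 (SE 0.13, adjusted p = 0.0111), but by 0.25 under quantile normalization and neqc, not called (adjusted p = 0.192 and 0.159).

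**Figure D3:**
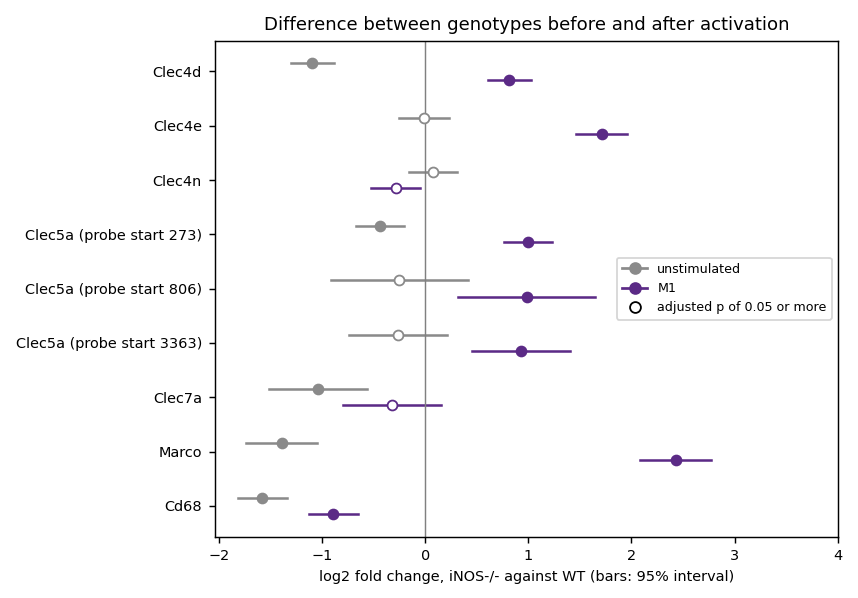
Log2 fold change of iNOS-/- against WT (horizontal axis) for each detected member probe, unstimulated and M1, with 95% intervals from limma. Filled points had an adjusted p under 0.05. Clec4d and Marco changed sides between the states, and Cd68 was lower in both.

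**Figure D4:**
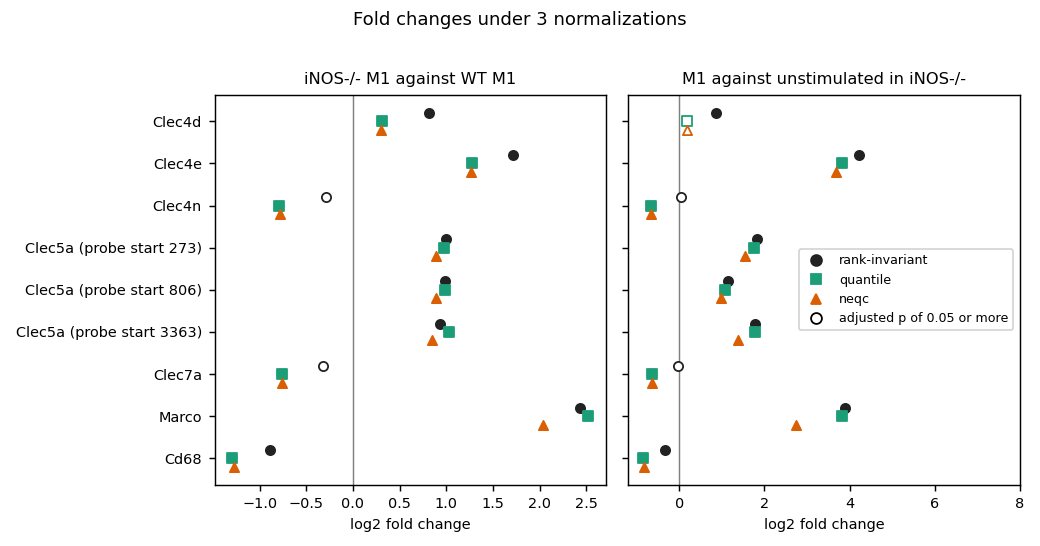
Log2 fold change of each detected member probe (horizontal axes) under rank-invariant scaling, quantile normalization and neqc, between the M1 groups and on activation in iNOS-/- cells. Filled points had an adjusted p under 0.05. Of these 3, quantile normalization and neqc called Clec4n and Clec7a lower in both comparisons, and rank-invariant scaling alone called the rise of Clec4d in iNOS-/- cells.

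The M1 comparison and the 2 responses share arrays, so the values above are set side by side and not counted as separate evidence. Quantile normalization moved the median of all probes from 0.04 to −0.13 in the iNOS-/- response and from 0.07 to −0.06 in the WT response. The brightest member probes, at percentiles of 96.7 to 99.4 among tested probes, all moved down further in the iNOS-/- response. Clec4d went from 0.86 to 0.19, Clec4n from 0.04 to −0.66, Clec7a from −0.03 to −0.64 and Cd68 from −0.33 to −0.84. These shifts share a direction and are not counted as separate. The share of called probes that were higher also moved, from 52.4% to 41.9% in the iNOS-/- response (43.3% with neqc) and from 57.6% to 47.4% in the WT response (44.4% with neqc). The calls of Clec4d, Clec4n, Clec7a and Cd68 that changed with normalization are given above beside their values. Clec4d, Clec4e, Clec5a at base 273, Marco and Cd68 kept their direction and call between the M1 groups under all 16 settings run.

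Genes that act with these receptors moved in both directions. The lists were drawn up from general knowledge. Of the 17 C-type lectin signalling genes tested, 7 were higher and 5 lower in iNOS-/- M1 than in WT M1 (median log2 0.28, all probes 0), against 24.2% and 24.3% of all probes. Inpp5d, the lipid phosphatase SHIP1 that dampens such signals, was lower by a log2 difference of −2.99 (adjusted p = 0.00295 in limma), from 7.28 ± 0.16 to 4.30 ± 0.87 (SD, n = 2). Malt1, the protease partner of Bcl10, was higher by 1.46 (adjusted p = 0.000409), and the kinase Src by 0.80 (adjusted p = 0.00123). Between the unstimulated groups 5 signalling genes were higher and 6 lower, against 15.9% and 16.2% of all probes. Activation raised 6 and lowered 2 in WT cells (all probes 20.2% and 14.9%), and raised 7 and lowered 3 in iNOS-/- cells (all probes 26.2% and 23.8%). The response was higher in iNOS-/- for 6 and lower for 4 (all probes 20.8% and 21.1%).

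Among other C-type lectin receptors, 20 were tested, of which 3 were higher and 6 lower in iNOS-/- M1 than in WT M1 (median −0.46), where 24.2% and 24.3% of all probes were called so and 48.5% in either direction. Cd209a, a DC-SIGN relative, was undetected in iNOS-/- M1 and at least 4.12-fold lower than in WT M1 (adjusted p = 0.00130 in limma), where the bound sets the WT M1 mean against the lowest value of any detected probe on each iNOS-/- M1 array, or the Cd209a value where that was higher. Cd93 was lower by a log2 difference of −1.25 (adjusted p = 0.000844), and Ly75 (DEC-205), an uptake receptor of dendritic cells, was higher by 1.498 (adjusted p = 0.0102). Clec2d, a ligand of natural killer cell receptors, was higher by 1.14 (adjusted p = 0.000846). Between the unstimulated groups 7 were higher and 2 lower, against 15.9% and 16.2% of all probes. Activation raised 4 and lowered 3 in WT cells (all probes 20.2% and 14.9%), and raised 3 and lowered 7 in iNOS-/- cells (all probes 26.2% and 23.8%). Unlike in the members, the response was higher in iNOS-/- for 2 and lower for 6 (median −0.75, all probes 20.8% and 21.1%).

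Among other scavenger receptors, 12 were tested, of which 3 were higher and 5 lower in iNOS-/- M1 than in WT M1 (median −0.31), against 24.2% and 24.3% of all probes. Scarb1, the HDL receptor, was undetected in iNOS-/- M1 and at least 2.35-fold lower (adjusted p = 0.000153 in limma), and Cd163, the haemoglobin-haptoglobin receptor, was also undetected there and at least 1.27-fold lower (adjusted p = 0.00484). Scarf2 was lower by a log2 difference of −2.48 (adjusted p = 0.000183) and Stab1 by −2.44 (adjusted p = 0.000286), with iNOS-/- M1 levels of 3.14 ± 0.02 and 3.43 ± 0.24, close to the background. Between the unstimulated groups 0 were called higher and 6 lower, against 15.9% and 16.2% of all probes. In iNOS-/- cells activation raised 5 and lowered 5 (all probes 26.2% and 23.8%), and in WT cells it raised 1 and lowered 3 (all probes 20.2% and 14.9%). The response was higher in iNOS-/- for 4 of these receptors and lower for 4 (all probes 20.8% and 21.1%). Of the lysosomal membrane relatives of Cd68, Lamp1 was lower (−0.58, adjusted p = 0.00403) and Lamp2 higher (0.61, adjusted p = 0.00351) in iNOS-/- M1 than in WT M1.

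**Figure D5:**
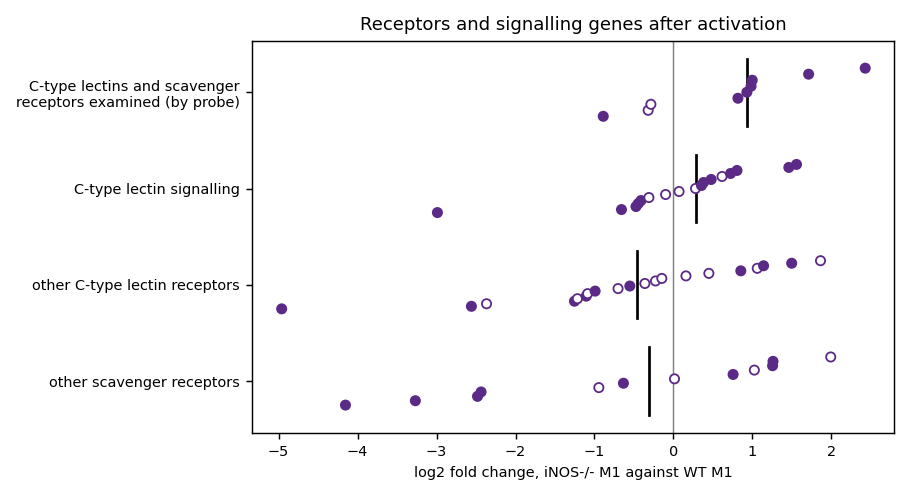
Log2 fold change of iNOS-/- M1 against WT M1 (horizontal axis) for the 9 detected member probes and for the genes of 3 lists. Each point is a probe or gene, filled where the adjusted p was under 0.05, and black lines are medians. The values of Cd209a, Scarb1 and Cd163, undetected in iNOS-/- M1, rest on the floor of the log scale and are not bounds.

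Markers of other cell types differed between the groups. Of 9 dendritic cell markers tested, 6 were higher in iNOS-/- M1 than in WT M1 and 8 were higher in iNOS-/- unstimulated than in WT unstimulated, with none lower in either. Over all probes, 24.2% were called higher and 24.3% lower between the M1 groups, the share beside every M1 count in this paragraph. Between the unstimulated groups the shares were 15.9% and 16.2%. Their summed intensity was 857 to 862 in WT unstimulated, 17040 to 17676 in WT M1, 14108 to 14985 in iNOS-/- unstimulated and 38453 to 39904 in iNOS-/- M1, and Flt3 was undetected. Granulocyte markers summed to 1158 to 1192, 1489 to 1598, 1732 to 1815 and 3987 to 4083 in the same order, with Mpo and Retnlg undetected (3 of 8 higher and 1 lower in iNOS-/- M1 than in WT M1). Mast cell and basophil markers summed to 42.6 to 43.0, 149 to 166, 220 to 238 and 403 to 403, with Mcpt8, Mcpt4 and Ms4a2 undetected, and 2 of the 3 tested were higher in iNOS-/- M1. Dividing cell markers summed to 511 to 583, 1638 to 1786, 1881 to 1905 and 682 to 682, and 5 of 6 were lower in iNOS-/- M1. Of 7 lymphocyte markers on the array, 6 were detected on no array and none was tested. Macrophage markers summed to 42257 to 42306, 51975 to 52754, 37334 to 38208 and 55997 to 58104, and 3 of 9 were higher and 4 lower in iNOS-/- M1. These sums mostly follow their brightest probes and do not count cells. Of the dendritic cell sum in iNOS-/- M1, Ccl17 gave 19598 and Il4i1 14015 (group means). Itgax ran the other way, not called, at 251 in WT M1 and 190 in iNOS-/- M1. The macrophage sum in iNOS-/- M1 was mostly Lyz (22106) and Lyz2 (21174). From WT M1 to iNOS-/- M1, Cd14 went from 2910 to 8136 and Csf1r from 2732 to 1151. The part of these cell types in the receptors' values was not tested.

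The genes whose log2 intensity ran closest to each member, by Pearson's r over the 8 arrays among 9678 probes detected on all arrays, were named by a rule. They were Marchf7 for Clec4d (r = 0.992), Tnfaip2 for Clec4e (r = 0.999), Vps41 for Clec4n (r = 0.981), A730024F05Rik for Clec5a (r = 0.986, probe starting at base 806), Cog6 for Clec7a (r = 0.983), Rap1b for Marco (r = 0.997) and Pld3 for Cd68 (r = 0.997). With 4 groups of 2 arrays, these values mostly follow the 4 group means and describe the pattern only.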

How the data were processed

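RNA of 8 samples was hybridised to Illumina bead arrays, named MouseRef-8 in one label and MouseWG-8 in another. The authors deposited, per the file headers, probe intensity not normalized between arrays and a detection p-value per probe. The file header says that no background was subtracted, yet between 25.2% and 27.2% of an array's values were negative, as after such a step. This conflict was not settled, and no further background was subtracted here. According to the methods, the authors subtracted background, applied rank-invariant normalization, put 1 for negative values, took log2 and used limma. For this report a robust line (MASS 7.3.60.0.1) scaled every array to the mean of all arrays, through probes whose rank moved by less than 0.05 of its value and lay between 0.5 and 0.9 of the ranks. A floor of 1 was applied before log2. Probes that 2 or more arrays detected (p-value under 0.05) entered a one-way model over the 8 arrays (limma 3.58.1, R 4.3.3), and Benjamini-Hochberg adjusted p-values over 13868 probes were called under 0.05. The number of arrays limits the precision.

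The members, lists, rule for named genes and tests were chosen with earlier results of these data known. Named genes were all members, Nos2, the gene most alike to each member and up to 4 called genes per list with the greatest change between the M1 groups and the higher group detected on every array; a gene that this rule covers is not reported here. Some marker genes were also named, where undetected or to show what carries a sum or runs against it. List genes with several probes are shown by their brightest probe. Alternatives were quantile normalization, neqc, raising the floor to 16, dropping the detection filter or tightening it, an intensity trend, fitting only the arrays compared, blocking on replicate number, requiring a 2-fold change and leaving out each array. When the procedure was tested on simulated data, fold changes were recovered closely. Most changes of a doubling were missed, most larger ones, added after the first run, were found, and false calls, all among dim probes, exceeded the rate the adjustment aims for. Counts of called probes are therefore approximate. Symbols follow the array's design, except Marchf7, which was resolved through its Entrez identifier. Promoters came from a RefSeq table of GRCm38.p6. Probe positions in the genome are left out because the build of the array's annotation is not given in the sources used here. Every value column was matched to a sample.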

Additional observations from a re-analysis of the deposited data

Results flagged for a closer look

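The response to LPS plus IFN-γ differed between the genotypes for 5 of the 7 member genes tested, by the interaction term of the limma model. Over all probes, 41.9% were called for this term, 20.8% higher and 21.1% lower. On the log2 scale the iNOS-/- response exceeded the WT response by 3.82 for Marco, 1.91 for Clec4d, 1.72 for Clec4e, 1.44, 1.23 and 1.19 for the Clec5a probes starting at bases 273, 806 and 3363, and 0.69 for Cd68. For Clec4d the responses had opposite signs (−1.05 in WT and 0.86 in iNOS-/-), although the iNOS-/- rise was not called with quantile normalization or neqc. For Cd68 the term reflects a smaller fall in iNOS-/- cells and was not called under those normalizations. The calls of Clec5a at bases 806 and 3363 were lost in several fits that left out an array, as given above.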

How the results depend on the processing

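With 2 arrays a group and no statement of separate mice, small changes are poorly resolved, and the dimmest probes (Marco in iNOS-/- unstimulated, several list genes) lie close to background. Of 711 alternative values for 45 fold changes of single probes, 613 kept their direction and side of the threshold. Of the rest, 64 were no longer called, 21 became called and 13 changed sign, and the cause was not tested. A 2-fold minimum gave 3455, 1966, 2092, 3986 and 3873 called probes for the M1 groups, the unstimulated groups, the WT response, the iNOS-/- response and their difference, with 2 member probes between the M1 groups and 3 in the WT response, by construction fewer. The arrays of the comparison alone left 3 member probes in the WT response. Marco's WT response was −0.12 with quantile normalization and −0.082 with neqc, and the iNOS-/- response of Clec4n −0.66 and −0.66. Leaving out an array, the unstimulated comparison called 2685 (without iNOS-/- unstimulated replicate 1; 2736 without replicate 2, 2847 and 2868 without WT unstimulated replicate 1 and 2) to 4424 probes and 3 (without WT unstimulated replicate 2 or iNOS-/- unstimulated replicate 2) to 5 members, and the WT response 3135 (without WT unstimulated replicate 2; 3190 without replicate 1, 3186 without WT M1 replicate 2) to 4858 probes and 3 (without either WT unstimulated array) to 6 members. Signs turned within left-out ranges of −0.017 to 0.10 (Clec4n), −0.095 to 0.030 (Clec4e), −0.54 to 0.068 and −0.50 to 0.00045 (Clec5a at 806 and 3363) between the unstimulated groups, −0.24 to 0.013 (Clec5a at 806) and −0.056 to 0.14 (Marco) in WT, and −0.19 to 0.11 (Clec7a) in iNOS-/-; none of these was called. Same-numbered arrays did not deviate together (correlations of −0.034 to 0.027). These correlations show no shared deviation but cannot exclude that same-numbered samples shared mice or cultures. With the replicate block 6, 5, 4, 6 and 6 member probes were called, of 6271, 3887, 4288, 6601 and 5314 in all. The calls lost with the block were those of Clec5a at 806 between the M1 groups and for the difference in response, of Clec4n, Clec5a at 273 and Clec7a in WT, and of Cd68 in iNOS-/-, while Clec5a at 3363 became called in WT.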
